A study of Homo sapiens with 8 samples.

Results

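Mitochondria continually divide and join, and 10 genes at the centre of that machinery were examined: DNM1L, MFF, FIS1, MIEF1, MIEF2, MTFP1, MTFR1, MFN1, MFN2 and OPA1. They were taken as a fixed list by symbol from the deposited gene tables, whatever their values, and all 10 of the 62826 listed genes were found and were among the 19785 genes with enough reads to be tested. Every member therefore passed the filter on low counts. Transcript tables gave the shares of their splice forms, with most attention to OPA1 and DNM1L.

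The cells were LUHMES, an established conditionally immortalised line of human midbrain origin, with a wild-type genotype per the labels. In both groups the cells had been taken through 6 days of differentiation with dbcAMP, GDNF and tetracycline, the agent that shuts off the immortalising gene in this line. The treated group then received antimycin A at 25 µM, which blocks respiratory complex III, together with oligomycin at 10 µM, which blocks the ATP synthase. The vehicle group received DMSO for the same 8 h. Each group held 4 libraries of bulk RNA sequencing, from differentiations numbered 2 to 5. The series text calls the batches independent and gives 4 technical replicates for each, which the titles of the treated libraries repeat and those of the vehicle libraries do not. All of them come from a single line, and in bulk RNA fewer cells and less RNA per cell cannot be told apart.

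Fission is carried out by the dynamin-like GTPase encoded by DNM1L (DRP1), which is recruited from the cytosol by receptors in the outer mitochondrial membrane and constricts the organelle. Fusion needs the mitofusins MFN1 and MFN2 in the outer membrane and OPA1 in the inner membrane. OPA1 is made from many splice forms and is cut by the proteases OMA1 and YME1L1, and loss of the inner membrane potential or of ATP is known to shift that cutting and to fragment the network. Neurons depend on this balance because mitochondria must be small enough to enter axons and branches.

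The libraries held between 93.7 and 110 M estimated reads each (1 M is 1000000 reads). Levels per library are given as CPM, counts per 1000000 reads. Vehicle replicate 2 stood apart from the other vehicle libraries: its score on the second principal component of log2 CPM was -54.82 against 14.5 to 22.9, and mRNAs of mitochondrial DNA took 11.5% of its reads against 3.27% to 4.33%. The main results for the 10 genes below are given with and without this library, since it moves several of them. Some transcript shares, the marker values and most genes named from the further lists are given with all libraries only. The 8 listed pan-neuronal markers summed to 3852 to 3954 TPM in treated and 4177 to 5647 TPM in vehicle libraries, with 2 higher and 5 lower by the test. Of the 10 dopaminergic markers TH, SLC6A3, NR4A2 and EN1 were detected, while SLC18A2, DDC, PITX3, LMX1A, LMX1B and FOXA2 were under 1 TPM in every library. TH rose by 1.04 on the log2 scale while EN1 fell by 0.80 and DDC fell by 1.05 (adjusted p = 0.00039, 0.005 and 0.0013 by edgeR), and the other 3 that could be tested did not pass. Markers of dividing precursors summed to 103 to 110 TPM in treated and 132 to 198 TPM in vehicle libraries, with 5 of 6 lower by the test and none higher, and their part in the results below was not tested. The 4 astrocyte markers summed to 1.43 to 1.95 TPM in treated and 2.17 to 2.81 TPM in vehicle libraries, the 4 oligodendrocyte markers to 1.65 to 1.93 and 1.34 to 2.23 TPM, and each microglial marker was under 1 TPM in every library.

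On TPM, which is per transcript length and so allows genes to be compared, OPA1 (114 ± 2.56), MFF (106 ± 7.65) and DNM1L (97.6 ± 7.69) were the most abundant of the 10 in vehicle cells (mean ± SD, n = 4). MFN2 (75.4 ± 10.8) and FIS1 (72.7 ± 16.2) followed, then MIEF1 (46.5 ± 9.52), MFN1 (44.4 ± 7.94) and MTFR1 (32.9 ± 2.31). MTFP1 (12.2 ± 2.97) and MIEF2 (6.75 ± 2.86) were the scarcest. Only DNM1L against MFN2 and MTFR1 against MTFP1 were neighbours in this order whose vehicle libraries did not overlap, and vehicle replicate 2 was the lowest vehicle library for each gene but OPA1. Without it, only OPA1 against MFF and MFN2 against FIS1 overlapped. In treated cells MFF led with 120 ± 8.70 TPM, ahead of OPA1 at 96.4 ± 11.6, and DNM1L at 79.2 ± 3.65 stood behind MFN2 at 83.6 ± 1.32 and FIS1 at 82.6 ± 3.03.

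Of the 10 genes, 6 rose in treated cells (MTFP1, MTFR1, FIS1, MFN2, MIEF1 and MFF), DNM1L fell, and OPA1, MFN1 and MIEF2 did not pass the test (edgeR quasi-likelihood F-test, Benjamini-Hochberg adjusted p under 0.05 over all genes tested). The background was high: 57.9% of all genes tested passed, 27.7% as higher and 30.2% as lower. The median log2 fold change, treated over vehicle, was 0.20 for the 10 genes and -0.02 for all genes tested. Without vehicle replicate 2, 8 of the 10 passed, MIEF2 being the addition. The count was 4 without treated replicate 4, and also 4 by limma on log2(TPM + 1).

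**Figure D1:**
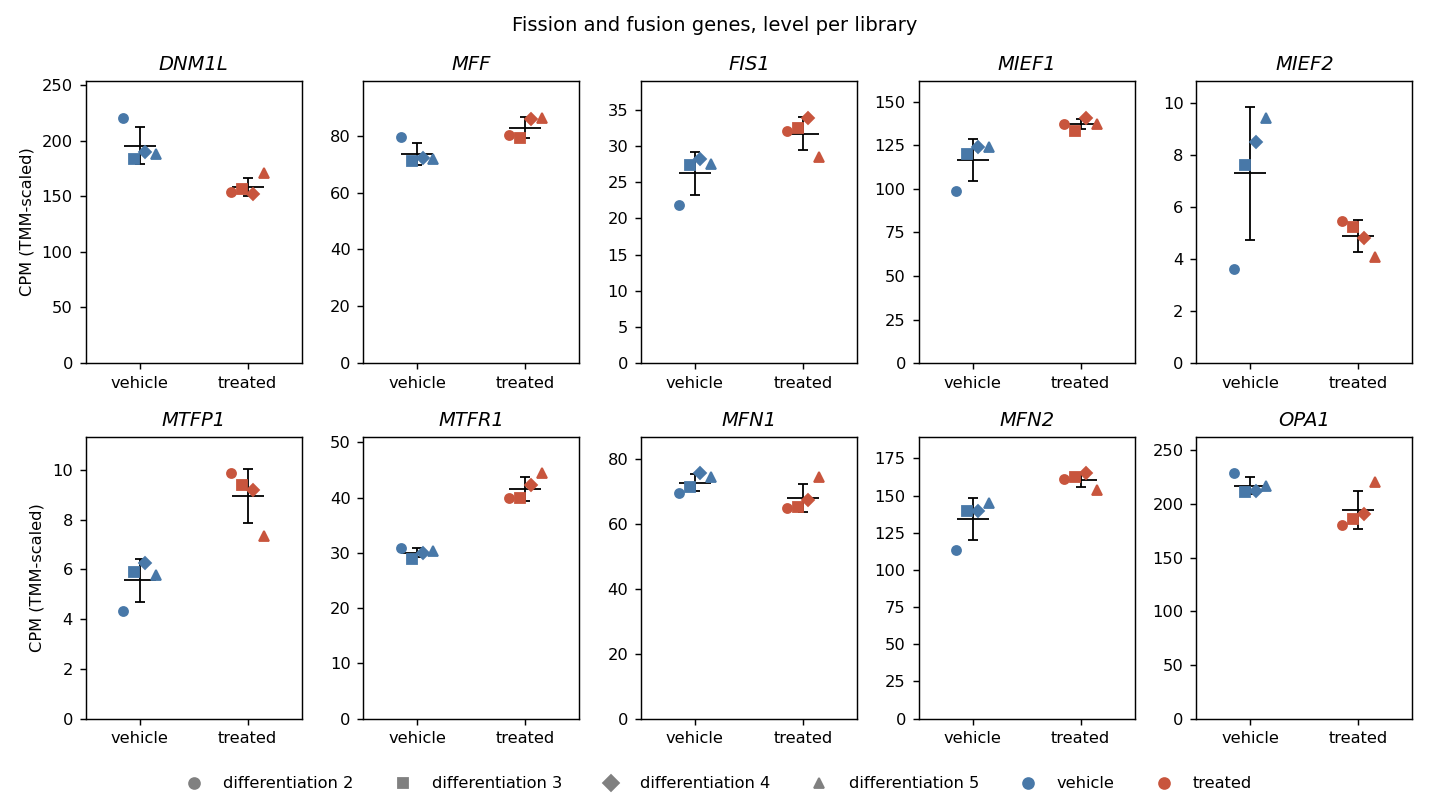
Level of each of the 10 genes per library, in CPM on TMM-scaled library sizes, each panel with its own axis from 0. Each point is 1 library, its shape the differentiation number and its colour the group, and the bars are the mean ± SD of 4 libraries. The treated DNM1L libraries (152 to 171 CPM) lie under all vehicle libraries, the treated MTFP1 and MTFR1 libraries lie above, and vehicle replicate 2 (circles) departs from the other vehicle libraries in several panels.

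DNM1L (ENSG00000087470.21, chr12:32679200-32745650, plus strand, hg38) encodes the fission GTPase itself. It had 154, 157, 152 and 171 CPM in treated differentiations 2 to 5 and 221, 184, 190 and 188 CPM in the vehicle ones. All 4 treated libraries were below all 4 vehicle libraries, and vehicle replicate 2 was the highest. DNM1L fell by 0.30 on the log2 scale (SE 0.074, adjusted p = 0.0052 by edgeR), and by 0.24 without that library (adjusted p = 0.0031). It was lower in each of the 14 alternative fits, with log2 fold changes from -0.40 to -0.24, and it was the single gene of the list called lower. CPM values did not overlap between the groups for 53.4% of all genes tested, and for 6 of the 10 here (DNM1L, FIS1, MIEF1, MTFP1, MTFR1 and MFN2).

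The DNM1L message also changed in composition. An alternative exon of 78 bases (chr12:32737865-32737942, plus strand), in the part of the coding sequence that encodes the variable domain of DRP1, was contained in 41.2%, 37.8%, 38.8% and 41.1% of the TPM of annotated transcripts that span it in treated differentiations 2 to 5, and in 47.7%, 52.9%, 53.8% and 56.8% in the vehicle ones. The treated libraries were all below the vehicle libraries. The mean inclusion was 39.8% ± 1.69 in treated and 52.8% ± 3.79 in vehicle cells (n = 4 each), or 54.5% without vehicle replicate 2. Inclusion fell by 0.75 in log2 odds (SE 0.153, adjusted p = 0.011, limma over the 9731 alternative exons of all genes, of which 19.4% passed), and by 0.85 without vehicle replicate 2 (adjusted p = 0.0024). The exon is shown because it carries this difference, in capitals between the 15 bases of spliced message on either side in lower case, read from transcript DNM1L-220 of GENCODE 29 on hg38. Its 78 bases keep the reading frame whether included or skipped.
DNM1L 78-base exon: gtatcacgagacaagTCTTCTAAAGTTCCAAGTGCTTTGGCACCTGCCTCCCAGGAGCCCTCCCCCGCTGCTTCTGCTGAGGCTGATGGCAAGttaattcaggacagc

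A second alternative exon of DNM1L, of 33 bases in the same region, was included at 78.9% ± 1.06 in treated and 80.3% ± 4.94 in vehicle cells, and the log2 odds differed by -0.16 (SE 0.232, adjusted p = 0.66 by limma). The groups overlapped, and the difference in means was -1.43 percentage points with all libraries and 0.96 without vehicle replicate 2. Among whole transcripts, DNM1L-207 took 35.2%, 34.4%, 32.8% and 35.1% of the TPM of the gene in treated differentiations 2 to 5 and 30.7%, 30.4%, 29.3% and 29.5% in the vehicle ones, whose mean without replicate 2 was 29.7%, so that the groups were apart (exact permutation p = 0.0286, two-sided, the smallest that 70 assignments allow). Shares of transcripts were apart in this way for 23.0% of all transcripts examined. DNM1L-220, which holds the 78-base exon, had 20.3% ± 2.18 in treated and 28.4% ± 5.22 in vehicle cells, and vehicle replicate 2 at 20.6% lay among the treated libraries. The vehicle mean was 30.9% when it was omitted, and the groups were then apart. DNM1L-201 (7.37% against 4.29%) and DNM1L-211 (5.95% against 6.34%) overlapped between the groups. Across all its transcripts the usage test of edgeR gave DNM1L an adjusted p of 0.30, against 8.61% of genes called. Without vehicle replicate 2 it gave 0.0034 (12.8% of genes called), and with transcripts of at least 10 reads in all 8 libraries 0.0041 (24.5% of genes called). Only 14 of the 29 DNM1L transcripts in the tables have the length that GENCODE 29 gives them, and annotated transcripts held 89.7% to 96.7% of the gene's TPM.

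Of the 4 genes for receptors that bring DRP1 to the outer membrane, MFF, FIS1 and MIEF1 passed the test as higher, against 27.7% of all genes tested, and MIEF2 did not pass. MFF (ENSG00000168958.21, chr2:227325151-227357836, plus strand), a tail-anchored receptor, had 80.3, 79.2, 85.8 and 86.3 CPM in treated and 79.5, 71.0, 72.1 and 71.8 CPM in vehicle differentiations 2 to 5. Vehicle replicate 2 lay between treated replicates 2 and 3, so the groups overlapped by that library alone. MFF rose by 0.17 (log2, SE 0.063, adjusted p = 0.037 by edgeR) and by 0.21 without vehicle replicate 2 (adjusted p = 0.0057). Omitting treated replicate 4 or 5, or any of vehicle replicates 3 to 5, ended the call (adjusted p = 0.055 to 0.1), and on library totals the log2 fold change was 0.08 (adjusted p = 0.28).

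MFF showed lower inclusion of an in-frame exon of 60 bases (chr2:227352514-227352573, plus strand). Its inclusion was 37.6%, 38.5%, 36.6% and 33.3% in treated and 41.5%, 46.5%, 51.2% and 48.6% in vehicle differentiations 2 to 5. No treated library reached the vehicle range, of which vehicle replicate 2 was the lowest. The mean fell from 46.9% ± 4.12 to 36.5% ± 2.26, a log2 odds difference of -0.62 (SE 0.163, adjusted p = 0.032 by limma over all alternative exons), and of -0.72 without vehicle replicate 2 (adjusted p = 0.0064). Leaving out any other library gave adjusted p values of 0.06 to 0.082. The exon is shown for this difference, in capitals between 15 flanking bases of MFF-201 (GENCODE 29, hg38).
MFF 60-base exon: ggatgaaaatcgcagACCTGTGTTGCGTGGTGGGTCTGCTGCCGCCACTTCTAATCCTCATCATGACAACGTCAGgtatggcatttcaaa

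An in-frame MFF exon of 159 bases had 30.6% ± 2.35 inclusion in treated and 38.0% ± 4.70 in vehicle cells, with a log2 odds difference of -0.47 (SE 0.179, adjusted p = 0.10 by limma). Vehicle replicate 2, at 31.7%, lay below treated replicate 3, at 33.7%. Without that library the vehicle mean was 40.1% and the difference passed (adjusted p = 0.015). A noncoding MFF exon of 178 bases fell from 9.54% ± 0.694 to 6.40% ± 0.747 (adjusted p = 0.022 by limma, and 0.019 without vehicle replicate 2), and omitting vehicle replicate 5 or any of treated replicates 3 to 5 gave 0.053 to 0.062. The usage test called MFF (adjusted p = 0.022), led by the rare MFF-215, which held 4.33% of the TPM in treated replicate 2 and at most 0.314% in every other library. The adjusted p was 0.083 without vehicle replicate 2, 0.14 to 1 with 1 of the other libraries omitted, and 0.012 in the single exception, treated replicate 4. Of the transcripts with at least 10% of the gene, MFF-201, which holds the 60-base exon, took 19.2% ± 1.60 in treated and 24.8% ± 2.51 in vehicle cells (25.7% without vehicle replicate 2) with the groups apart, and MFF-205 took 24.7% ± 0.893 and 18.5% ± 4.96 with the groups overlapping at vehicle replicate 2. Shares were apart for 23.0% of all transcripts examined.

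FIS1 (ENSG00000214253.9, chr7:101239458-101252316, minus strand), the small tail-anchored outer membrane protein first described as a DRP1 receptor, had 32.0, 32.5, 33.9 and 28.5 CPM in treated and 21.8, 27.4, 28.2 and 27.5 CPM in vehicle differentiations 2 to 5. The groups did not overlap, though treated replicate 5 and vehicle replicate 4 differed by less than 1 CPM. FIS1 rose by 0.27 (log2, SE 0.094, adjusted p = 0.029 by edgeR) and by 0.19 without vehicle replicate 2 (adjusted p = 0.027). Leaving out treated replicate 2, 3 or 4 gave adjusted p values of 0.058, 0.067 and 0.079, and library totals gave a log2 fold change of 0.17 (adjusted p = 0.21). On TPM the treated libraries (79.6 to 86.6) overlapped vehicle libraries 3 to 5 (79.1 to 84.0), vehicle replicate 2 had 48.7, and limma on log2(TPM + 1) gave 0.21 (adjusted p = 0.29).

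The shares of FIS1 transcripts also differed between the groups. FIS1-201, the main coding transcript, held 62.7%, 60.7%, 59.9% and 58.1% of the gene's TPM in treated and 79.6%, 75.6%, 75.7% and 70.6% in vehicle differentiations 2 to 5. FIS1-207, a coding transcript that begins at another first exon, held 27.0%, 29.7%, 30.9% and 32.5% in treated and 12.04%, 16.8%, 16.2% and 14.7% in vehicle cells. Neither transcript overlapped between the groups, with differences of -15.01 and 15.06 percentage points, and the vehicle mean of FIS1-207 was 15.9% without vehicle replicate 2. Of all transcripts examined, 23.0% had shares that did not overlap. FIS1-204, annotated as a target of nonsense-mediated decay, lacks the 133-base exon that FIS1-201 holds. With all transcript types, inclusion of this exon counts only the 2 transcripts that span it, FIS1-201 and FIS1-204, and leaves out FIS1-207. Inclusion of that exon fell from 96.7% ± 0.822 to 92.8% ± 0.435 (adjusted p = 0.0043 by limma, and 0.0042 without vehicle replicate 2), a difference of -3.81 percentage points that was 0.011 among protein-coding transcripts alone, which leave out FIS1-204. The usage test did not call the gene (adjusted p = 0.48, and 0.098 without vehicle replicate 2), and these FIS1 transcripts were chosen after their values were seen.

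MIEF1 and MIEF2 encode the paralogous adaptors MiD51 and MiD49, which bind DRP1 at the outer membrane. MIEF1 (ENSG00000100335.15, chr22:39499432-39518132, plus strand) had 138, 134, 141 and 137 CPM in treated and 98.6, 120, 124 and 124 CPM in vehicle differentiations 2 to 5. The groups were apart, and vehicle replicate 2 was the lowest library. MIEF1 rose by 0.23 (log2, SE 0.079, adjusted p = 0.026 by edgeR) and by 0.16 without vehicle replicate 2 (adjusted p = 0.013). Without treated replicate 4 the adjusted p was 0.065, and with a correction for effective transcript length the log2 fold change was 0.17 (adjusted p = 0.11). On TPM the treated libraries had 48.0 to 50.7, vehicle libraries 3 to 5 had 50.3 to 52.9 and vehicle replicate 2 had 32.3, and limma on log2(TPM + 1) gave a log2 fold change of 0.11 (adjusted p = 0.54).

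MIEF2 (ENSG00000177427.13, chr17:18260534-18266552, plus strand) was the scarcest of the 10, with 5.48, 5.24, 4.81 and 4.07 CPM in treated and 3.64, 7.61, 8.51 and 9.44 CPM in vehicle differentiations 2 to 5. Vehicle replicate 2 was the lowest of the 8 libraries and the other vehicle libraries were the highest. The log2 fold change was -0.58 (SE 0.246, adjusted p = 0.067 by edgeR), and without vehicle replicate 2 it was -0.80 (adjusted p = 0.0002). MIEF2 was the only member whose edgeR call changed when that library was omitted. With all libraries kept, it passed under DESeq2 (adjusted p = 0.032). It also passed by edgeR on library totals (adjusted p = 0.046) and without the filter on low counts (adjusted p = 0.042). The ratio of MIEF1 to MIEF2 in TPM was 10.8, 11.2, 12.1 and 14.96 in treated cells, 12 in vehicle replicate 2 and 5.88 to 7.38 in vehicle replicates 3 to 5.

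Both of the further fission regulators rose, with the largest log2 fold changes of the 6 rising genes. MTFP1 (ENSG00000242114.6, chr22:30425530-30429053, plus strand) encodes MTP18, an inner membrane protein that promotes division. It had 9.86, 9.38, 9.19 and 7.36 CPM in treated and 4.31, 5.90, 6.27 and 5.77 CPM in vehicle differentiations 2 to 5. Every treated library was above every vehicle library, with treated replicate 5 nearest to the vehicle range. MTFP1 rose by 0.68 (log2, SE 0.133, adjusted p = 0.0014 by edgeR) and by 0.58 without vehicle replicate 2 (adjusted p = 0.00083).

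MTFR1 (ENSG00000066855.16, chr8:65644734-65771261, plus strand), a mitochondrial protein that promotes division, had 39.9, 39.9, 42.3 and 44.4 CPM in treated and 30.9, 28.9, 29.9 and 30.4 CPM in vehicle differentiations 2 to 5. Here vehicle replicate 2 lay close to its group, and the gap between the groups was many times the spread of the vehicle libraries. MTFR1 rose by 0.47 (log2, SE 0.063, adjusted p = 0.00011 by edgeR) and by 0.48 without vehicle replicate 2 (adjusted p = 6.3e-05). MTFP1, MTFR1 and DNM1L were the members called in the same direction in each of the 14 alternative fits. One MTFR1 feature did set vehicle replicate 2 apart: MTFR1-204, annotated as a processed transcript, took 31.7% of the gene's TPM there and at most 1.22% in every other library.

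The mitofusins did not move together. MFN2 (ENSG00000116688.18, chr1:11980181-12013514, plus strand), which also tethers mitochondria to the endoplasmic reticulum, had 161, 162, 165 and 154 CPM in treated and 114, 139, 139 and 145 CPM in vehicle differentiations 2 to 5. The groups were apart, and vehicle replicate 2 was far the lowest. MFN2 rose by 0.26 (log2, SE 0.079, adjusted p = 0.018 by edgeR) and by 0.18 without vehicle replicate 2 (adjusted p = 0.008). On library totals the log2 fold change was 0.16 (adjusted p = 0.20), and on TPM the groups overlapped. Annotated transcripts held only 44.6% to 63.5% of MFN2's TPM, so its splice forms are not described.

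MFN1 (ENSG00000171109.19, chr3:179347692-179394931, plus strand), the mitofusin with the stronger tethering activity, had 65.0, 65.3, 67.4 and 74.6 CPM in treated and 69.8, 71.4, 75.7 and 74.6 CPM in vehicle differentiations 2 to 5. Treated replicate 5 lay inside the vehicle range and the other treated libraries lay below it. The log2 fold change was -0.10 (SE 0.065, adjusted p = 0.22 by edgeR), -0.12 without vehicle replicate 2 (adjusted p = 0.11) and -0.14 without treated replicate 5 (adjusted p = 0.045). Its sign was positive with the length correction (0.14, adjusted p = 0.17) and on log2(TPM + 1) by limma (0.08, adjusted p = 0.66), so no direction is given for MFN1 as a whole.

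Within MFN1 the transcripts shifted. A coding exon of 127 bases (chr3:179377042-179377168, plus strand) was included at 53.9%, 55.7%, 53.8% and 55.0% in treated and 75.8%, 66.0%, 70.1% and 71.6% in vehicle differentiations 2 to 5. The treated libraries were close together and well below every vehicle library. The mean fell from 70.9% ± 4.05 to 54.6% ± 0.920, a log2 odds difference of -0.99 (SE 0.162, adjusted p = 0.0045 by limma), and of -0.88 without vehicle replicate 2 (adjusted p = 0.0025). This was the largest difference in percentage points, -16.3, among the exons examined, and the call held with each library left out in turn (adjusted p at most 0.018). The exon is shown for that reason, in capitals between 15 flanking bases of MFN1-205 (GENCODE 29, hg38), and its 127 bases do not keep the reading frame when skipped.
MFN1 127-base exon: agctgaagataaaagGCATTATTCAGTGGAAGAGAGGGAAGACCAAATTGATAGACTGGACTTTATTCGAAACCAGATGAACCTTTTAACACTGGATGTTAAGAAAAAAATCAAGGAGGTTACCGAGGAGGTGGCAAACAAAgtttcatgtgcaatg

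The transcript without this exon, MFN1-202, is annotated as a target of nonsense-mediated decay. It took 34.3%, 30.2%, 34.4% and 31.8% of the gene's TPM in treated and 19.6%, 26.1%, 23.5% and 23.0% in vehicle differentiations 2 to 5. The coding transcript MFN1-205 took 22.9%, 21.0%, 22.9% and 20.2% in treated and 34.9%, 31.8%, 35.6% and 34.5% in vehicle cells. The groups were apart for both, as they were for the coding MFN1-201 (14.2% ± 0.440 in treated and 20.6% ± 3.72 in vehicle cells) and the retained-intron transcript MFN1-203 (19.1% ± 2.28 and 14.2% ± 0.248). Over all transcripts examined, 23.0% of shares were apart. Without vehicle replicate 2 the vehicle means of MFN1-202 and MFN1-205 were 24.2% and 34.0%. The usage test gave MFN1 an adjusted p of 0.40 with all libraries, 0.027 without vehicle replicate 2 and 0.0071 with transcripts of at least 10 reads in all 8 libraries, and these MFN1 transcripts and exon were chosen after their values were seen.

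**Figure D2:**
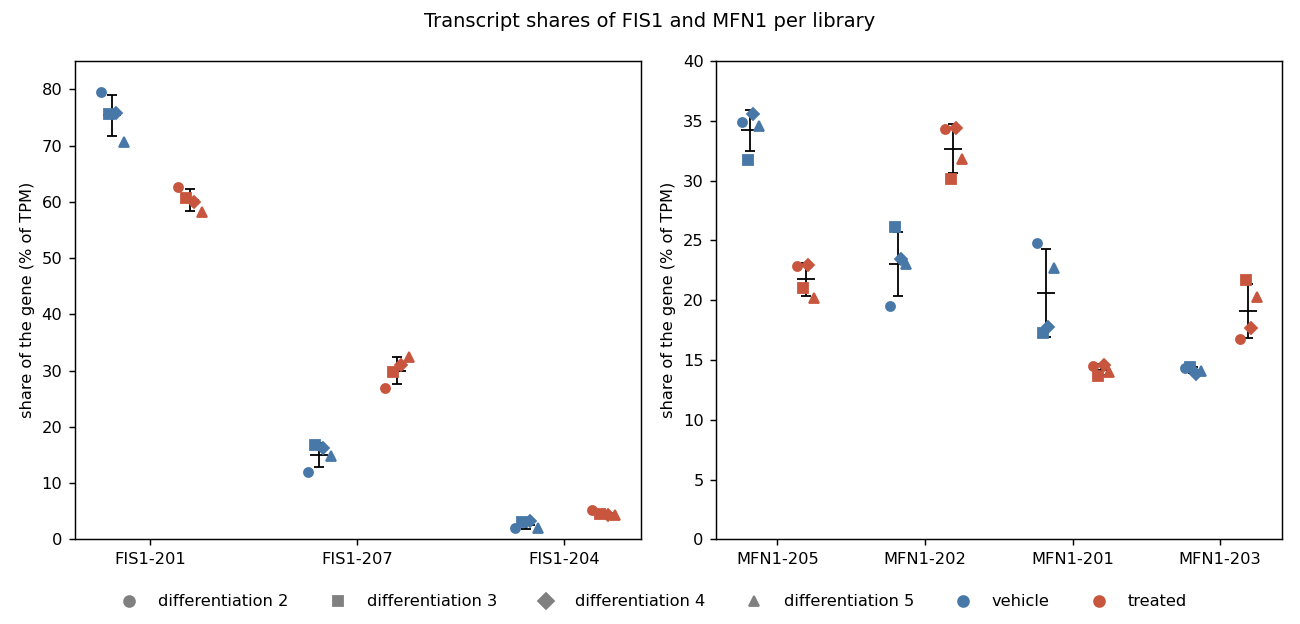
Share of the gene's TPM held by single transcripts of FIS1 (left) and MFN1 (right) in each library, in percent, with points, shapes, colours and bars (mean ± SD, n = 4) as in the plot of gene levels. FIS1-207 lies between 27.0% and 32.5% in treated and between 12.04% and 16.8% in vehicle libraries, and MFN1-202 and MFN1-205 exchange their order between the groups.

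OPA1 (ENSG00000198836.11, chr3:193593144-193697823, plus strand), the inner membrane fusion GTPase, had 180, 186, 190 and 220 CPM in treated and 228, 211, 212 and 217 CPM in vehicle differentiations 2 to 5. Treated replicate 5 lay among the vehicle libraries and the other treated libraries lay below them. The log2 fold change was -0.16 (SE 0.073, adjusted p = 0.081 by edgeR) and -0.14 without vehicle replicate 2 (adjusted p = 0.11). Without treated replicate 5 it was -0.22 (adjusted p = 0.0059), and on library totals -0.26 (adjusted p = 0.012). OPA1 also passed by limma on log2(TPM + 1), with -0.24 (adjusted p = 0.049).

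OPA1 had 5 alternative exons, of which those of 108, 54 and 111 bases lie in the part of the message known for its splice forms. The 111-base exon (chr3:193626092-193626202, plus strand), which is known to bring the YME1L1 cleavage site into the protein, was included at 22.0%, 23.9%, 22.8% and 24.0% in treated and 37.1%, 31.6%, 33.04% and 33.6% in vehicle differentiations 2 to 5. The groups were apart by more than the whole range within either. The mean fell from 33.8% ± 2.35 to 23.2% ± 0.968, a log2 odds difference of -0.74 (SE 0.135, adjusted p = 0.0069 by limma), and of -0.67 without vehicle replicate 2 (vehicle mean 32.8%, adjusted p = 0.004). The difference held with each library left out in turn (adjusted p at most 0.026).

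A 108-base exon of OPA1 (chr3:193617178-193617285, plus strand) moved the other way. It was included at 87.9%, 88.0%, 87.8% and 88.7% in treated and 84.4%, 82.6%, 84.6% and 84.2% in vehicle differentiations 2 to 5. The mean rose from 83.9% ± 0.902 to 88.1% ± 0.406, a log2 odds difference of 0.47 (SE 0.124, adjusted p = 0.030 by limma), and of 0.49 without vehicle replicate 2 (adjusted p = 0.016), while leaving out any other library gave 0.06 to 0.082. Both exons keep the reading frame and are shown for their opposite directions, in capitals between 15 flanking bases of OPA1-205 (GENCODE 29, hg38).
OPA1 108-base exon: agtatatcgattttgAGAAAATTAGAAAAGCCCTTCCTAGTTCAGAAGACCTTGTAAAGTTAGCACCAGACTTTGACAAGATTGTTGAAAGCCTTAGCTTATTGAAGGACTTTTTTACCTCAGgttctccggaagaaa
OPA1 111-base exon: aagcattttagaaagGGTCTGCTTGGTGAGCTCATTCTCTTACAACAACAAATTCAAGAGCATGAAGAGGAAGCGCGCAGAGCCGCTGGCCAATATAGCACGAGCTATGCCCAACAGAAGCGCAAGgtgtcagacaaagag

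The OPA1 exon of 54 bases was included at 16.4% ± 0.891 in treated and 14.2% ± 0.898 in vehicle cells. Its groups were apart, with 15.6% the lowest treated and 15.4% the highest vehicle library, but the log2 odds difference of 0.24 did not pass (SE 0.128, adjusted p = 0.23 by limma). An OPA1 exon of 65 bases had 93.5% ± 1.78 inclusion in treated and 92.9% ± 10.3 in vehicle cells, where vehicle replicate 2 stood at 77.6%. The difference in means was 0.57 percentage points with all libraries, although the log2 odds differed by -0.94 (adjusted p = 0.55 by limma). When vehicle replicate 2 was omitted the vehicle mean was 97.99% and all treated libraries were below the vehicle ones, by 4.52 percentage points on average (adjusted p = 0.058 by limma), so that library set the sign in percentage points.

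Of the 7 OPA1 transcripts that took at least 5% of the gene on average, 3 had groups that did not overlap, against 23.0% of all transcripts examined. OPA1-205 took 12.4% ± 0.449 in treated and 16.7% ± 2.32 in vehicle cells, OPA1-233 took 8.49% ± 0.591 and 10.9% ± 1.12, and OPA1-207 took 8.97% ± 0.882 and 6.25% ± 1.30 (exact permutation p = 0.0286 for each, the smallest possible). OPA1-205 and OPA1-233 are coding transcripts that were lower, and OPA1-207 is a coding transcript that was higher. Their vehicle means without vehicle replicate 2 were 17.8%, 11.4% and 6.79%. The retained-intron transcript OPA1-214 (22.1% and 22.9%), OPA1-204 (11.4% and 8.74%), OPA1-209 (7.80% and 10.99%) and OPA1-227 (10.2% and 8.06%) overlapped between treated and vehicle cells. Without vehicle replicate 2 their vehicle means were 20.4%, 11.6%, 9.01% and 9.48%, and each still overlapped. The differences of OPA1-214 and OPA1-204 then changed sign, to 1.68 and -0.25 percentage points. The usage test called OPA1 (adjusted p = 0.044, and 0.00052 without vehicle replicate 2). Its leading transcript was OPA1-225, annotated as a target of nonsense-mediated decay, with 2.87%, 1.31%, 3.63% and 4.98% in treated and 0.027%, 0.348%, 0.212% and 0.909% in vehicle differentiations 2 to 5. With any treated library, vehicle replicate 3 or vehicle replicate 4 omitted, the adjusted p was 0.086 to 0.53.

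**Figure D3:**
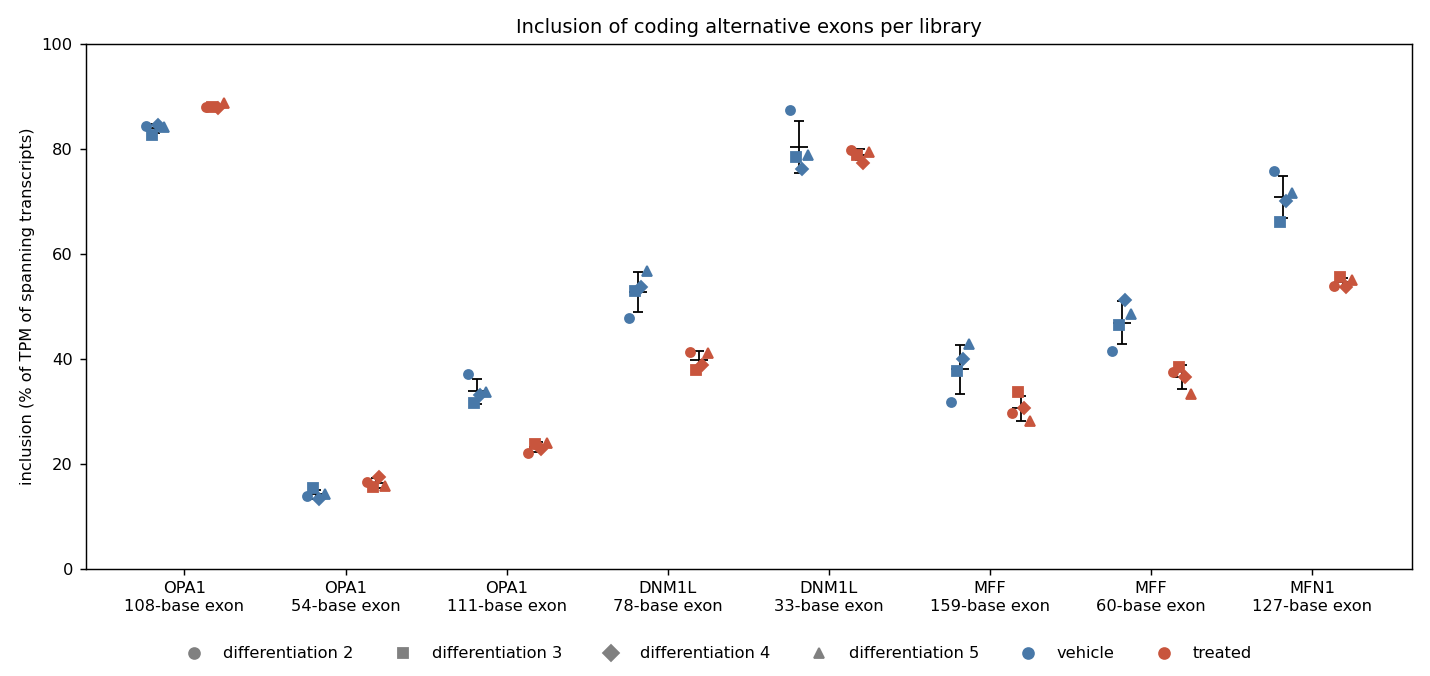
Inclusion of 8 coding alternative exons of OPA1, DNM1L, MFF and MFN1 in each library, as the percent of the TPM of transcripts spanning the exon that contain it, with points, shapes, colours and bars (mean ± SD, n = 4) as in the plot of gene levels. Treated libraries lie below vehicle libraries for the OPA1 111-base, DNM1L 78-base, MFF 60-base and MFN1 127-base exons and above for the OPA1 108-base exon, while the DNM1L 33-base exon overlaps.

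Across all 10 genes 19 exons met the rule for an alternative exon, with inclusion between 5% and 95% on average. Groups were apart for 8 of them, against 26.6% of all 9731 alternative exons, and 7 passed limma, against 19.4%. Of the 19, 6 were apart with lower inclusion in treated cells, against 20.4% of all alternative exons, and 6 passed limma as lower, against 15.3%. Lower exons made up 6 of the 8 apart here and 1987 of 2586 over all genes, and 6 of the 7 that passed here and 1491 of 1890 over all genes. Groups apart with higher inclusion in treated cells made up 6.16% of all alternative exons, and 2 of the 19 here, both in OPA1. Without vehicle replicate 2, 9 of the 19 passed, and without any other library 4 or 5. Exons of the same gene share transcripts and reads, and inclusion rests on the division of reads among transcripts by the quantifier, whose error is not part of these tests.

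Summed over annotated types, a larger share of the TPM of annotated MFN1 and DNM1L transcripts was outside the protein-coding class in treated cells. In MFN1 it was 59.8%, 61.6%, 59.8% and 61.0% of TPM in treated and 38.6%, 47.9%, 44.7% and 41.4% in vehicle differentiations 2 to 5. In DNM1L it was 22.2%, 26.3%, 26.9% and 20.5% in treated and 16.2%, 17.7%, 19.1% and 17.6% in vehicle cells, mostly as retained introns (18.3% and 14.3% on average). Treated libraries were above vehicle libraries for both genes, a pattern found in 14.7% of all genes examined (20.4% in either direction), and the vehicle means without vehicle replicate 2 were 44.7% for MFN1 and 18.1% for DNM1L. Computed from reads in place of TPM, the DNM1L difference had an exact permutation p of 0.0571. MTFR1 (25.6% ± 1.52 and 33.4% ± 10.5) and MIEF1 (27.0% ± 3.01 and 32.4% ± 3.79) had the opposite pattern, found in 5.67%, and without vehicle replicate 2 the vehicle means were 28.2% for MTFR1 and 30.8% for MIEF1. The share in OPA1 was 46.4% ± 4.70 in treated and 43.0% ± 7.15 in vehicle cells, with overlap by vehicle replicate 2 alone, at 53.4%. Without that library the OPA1 vehicle mean was 39.5% and all treated libraries were above the vehicle ones. In the remaining genes the share overlapped with all libraries, though annotated transcripts cover MFN2 only in part.

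**Figure D4:**
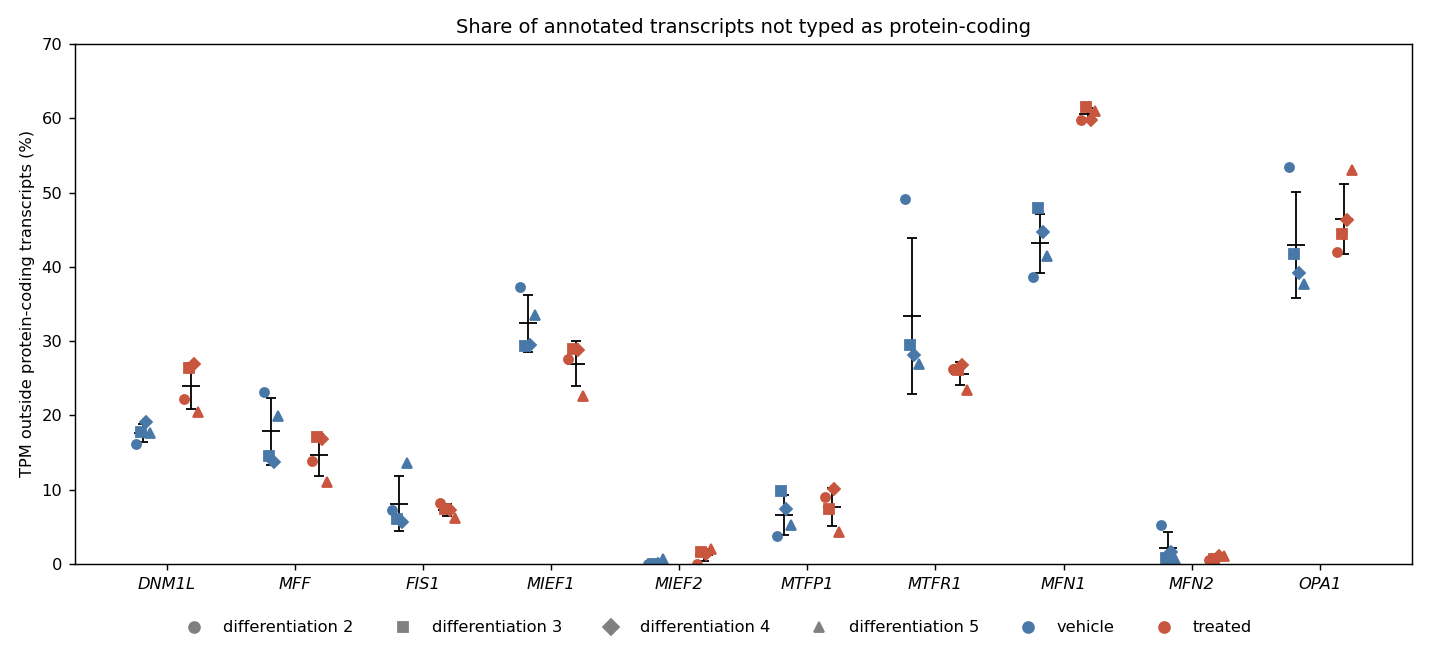
Percent of the summed TPM of each gene's annotated transcripts held by those not typed as protein-coding, per library, with points, shapes, colours and bars (mean ± SD, n = 4) as in the plot of gene levels. For MFN2 the annotated transcripts hold only 44.6% to 63.5% of the gene's TPM. All MFN1 values of treated libraries (59.8% to 61.6%) are above those of vehicle libraries (38.6% to 47.9%), and vehicle replicate 2 is the high point in MTFR1 and OPA1.

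Counting protein-coding transcripts alone, DNM1L had 54.1, 53.5, 52.9 and 61.5 TPM in treated and 65.1, 78.1, 78.9 and 80.4 TPM in vehicle differentiations 2 to 5. OPA1 had 49.6, 50.5, 51.8 and 52.9 TPM in treated and 53.0, 66.3, 67.1 and 72.6 TPM in vehicle cells. The groups were apart for both, as they were for 42.2% of all genes examined, and vehicle replicate 2 was the vehicle library closest to the treated ones. The ratios of treated to vehicle means were 0.734 for DNM1L and 0.791 for OPA1, and without vehicle replicate 2 the vehicle means were 79.1 and 68.6 TPM. Whole-gene DNM1L means were 79.2 TPM in treated and 97.6 TPM in vehicle cells. Annotated transcripts held 89.7% to 96.7% of DNM1L's TPM and 91.7% to 94.6% of MFF's, so the coding sums of both leave part out. MTFP1 (17.0 ± 1.12 against 11.4 ± 2.60 TPM), MTFR1 (30.4 ± 1.89 against 22.1 ± 4.76 TPM) and MFF (96.6 ± 9.09 against 80.5 ± 7.95 TPM) were higher in each treated library than in any vehicle library, and their vehicle means were 12.7, 24.5 and 84.4 TPM without vehicle replicate 2. Coding MFN1 was 18.3 ± 1.502 TPM in treated and 25.0 ± 3.64 TPM in vehicle cells, where only vehicle replicate 2, at 19.9 TPM, lay within the treated range. Without it the vehicle mean of coding MFN1 was 26.7 TPM and the groups were apart.

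**Figure D5:**
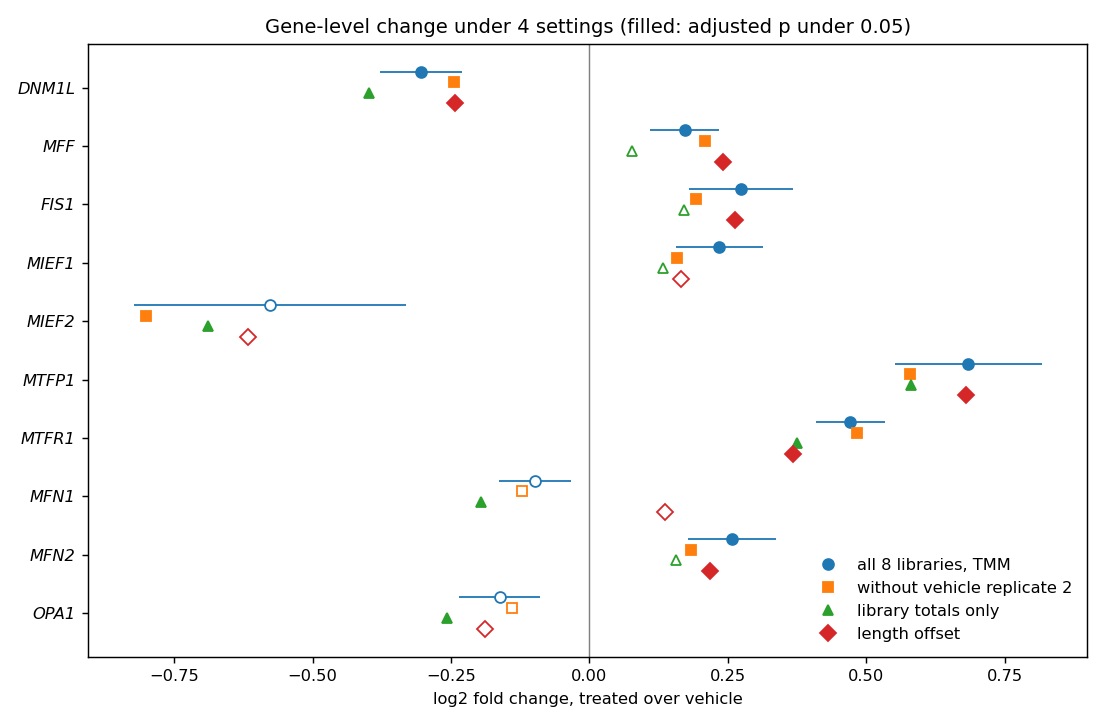
Log2 fold change (treated over vehicle) of the 10 genes under 4 settings of the edgeR fit: all 8 libraries with TMM scaling (circles, with SE bars), without vehicle replicate 2 (squares), on library totals only (triangles) and with a length offset (diamonds), filled where the adjusted p was under 0.05. DNM1L, MTFP1 and MTFR1 are filled throughout, MIEF2 is filled in 2 of the 4, and the MFN1 diamond lies on the other side of 0.

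In the authors' deposited table the same 10 genes had log2 fold changes between -0.53 (MIEF2) and 0.74 (MTFP1), with the signs given above. The false discovery rate in the authors' deposited table was 2.25e-05 for MTFR1, 6.24e-05 for MTFP1, 0.00266 for DNM1L, 0.0194 for MFN2, 0.037 for MIEF1, 0.0435 for FIS1 and 0.0496 for MIEF2. It was 0.099 for OPA1, 0.109 for MFF and 0.284 for MFN1 in the authors' deposited table. MIEF2 and MFF thus fell on the other side of 0.05 there than in the edgeR fit.

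The listed genes for proteins that process OPA1 or act with it, called the inner membrane list below, numbered 11. Of these, 1 rose and 2 fell, with a median log2 fold change of -0.04, beside 57.9% of all genes called and a median of -0.02. The count of 3 was 5 under DESeq2 and with the length correction. Both OPA1 proteases were among those changed. YME1L1, which cuts OPA1 at the site in the 111-base exon, had 276, 269, 282 and 302 CPM in treated and 209, 215, 225 and 223 CPM in vehicle differentiations 2 to 5. It rose by 0.37 (log2, SE 0.060, adjusted p = 0.00042 by edgeR), with the groups far apart. OMA1, the protease activated by loss of membrane potential, had 4.05, 4.04, 4.23 and 4.72 CPM in treated and 8.29, 6.32, 6.52 and 6.14 CPM in vehicle differentiations 2 to 5 and fell by 0.68 (SE 0.114, adjusted p = 0.00056 by edgeR). Without vehicle replicate 2 the YME1L1 log2 fold change was 0.35 and the OMA1 log2 fold change was -0.57. PARL, a rhomboid protease of the inner membrane, fell by 0.31 (adjusted p = 0.020 by edgeR). Its adjusted p was 0.00017 without vehicle replicate 2, while omitting treated replicate 3 or 4, or any of vehicle replicates 3 to 5, gave 0.052 to 0.066. The prohibitins, SPG7, AFG3L2, LETM1, STOML2, OPA3 and SLC25A46 did not pass.

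Of the 11 genes listed under outer membrane fusion, not all of which promote it, 6 rose and 2 fell, with a median log2 fold change of 0.35. The rising genes with the smallest adjusted p were RMDN3 (PTPIP51, a tether to the endoplasmic reticulum; 0.69), BAK1 (a pore-forming member of the BCL2 family that also affects fusion; 0.98) and GDAP1L1 (a paralogue of the neuropathy gene GDAP1; 0.45). The falling genes were PLD6, the mitochondrial phospholipase whose lipid product favours fusion (-0.63), and TCHP, trichoplein (-0.29).

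Of the cofactors of fission, 20 of 22 were tested, and 6 rose and 8 fell, with a median of -0.10. TBC1D15, a Rab7 GTPase-activating protein that FIS1 binds (0.73), ARF1, a Golgi GTPase present at division sites (0.68), and DNM2, a classical dynamin (0.50), were the rising genes with the smallest adjusted p. The dynamin gene DNM3 (-1.22), the actin nucleator FMN2 (-0.99) and the nonmuscle myosin heavy chain MYH10 (-0.63) were the falling genes with the smallest adjusted p. All of the genes named from these lists passed the edgeR test at adjusted p values from 2.2e-06 to 0.02, apart from those stated not to.

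Of 28 tested enzymes that modify DRP1 or the mitofusins, 11 rose and 7 fell, with a median of 0.13. The kinase gene PIM1 (0.68) and the genes PPP3CC (0.39) and PPP3CA (0.32), for catalytic subunits of the calcineurin phosphatase that removes the inhibitory phosphate from DRP1, were the rising genes with the smallest adjusted p. PPP3CC did not pass with the length correction (adjusted p = 0.16) and neither calcineurin gene passed by limma on log2(TPM + 1). AKAP1, which anchors protein kinase A to the outer membrane (-0.61), and PRKAA1, a catalytic subunit of AMP-activated kinase (-0.59), were among the falling genes. The count of 18 changed enzymes was 11 without treated replicate 3, 10 without treated replicate 4 and 22 without vehicle replicate 2. Without that library, 3 genes of the inner membrane list, 8 of outer membrane fusion and 15 of the fission cofactors were called, against 3, 8 and 14 with it. None of the lists was tested against other genes, and the share called was 72.7% for outer membrane fusion, 70% for fission cofactors, 64.3% for the modifying enzymes and 27.3% for the inner membrane list, beside 57.9% of all genes.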

How the data were processed

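RNA sequencing, with a KAPA mRNA kit per the labels, gave 8 libraries, 4 treated and 4 vehicle, grouped by their labels. The authors deposited a gene and a transcript table per library holding estimated counts and TPM, per the file headers; TPM was scaled by effective length by the authors' quantifier (name not given in the sources used here). HISAT2, SAMtools, StringTie and the hg38 build come from the submitters' processing notes. In their table of gene comparisons the authors deposited, beside a normalised signal of unnamed unit, a log2 fold change and its p-value with the false discovery rate. A deposited lncRNA table was not used. Use of strand in counting is not stated, so reads of genes that overlap on opposite strands cannot be told apart.

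Counts were rounded, filtered with filterByExpr, scaled by TMM and tested across all genes with edgeR 4.0.16 in R 4.3.3 (quasi-likelihood F-test, no covariate, Benjamini-Hochberg adjustment, threshold 0.05). Each SE was derived from the fold change and F (fold change divided by F's root) and adds nothing to the p. Transcript usage was tested with diffSpliceDGE and Simes p-values on transcripts reaching 10 reads in 4 or more libraries. An alternative exon is an internal exon whose neighbours are joined directly in another GENCODE 29 transcript, reported between 5% and 95% mean inclusion with spanning transcripts of at least 1 TPM in every library; other transcripts stayed out of inclusion. Exact tests ran over 70 assignments of libraries. In place of the planned adjustment over the reported exons, limma 3.58.1 was run on log2 odds (prior 0.5 TPM) over all genes' exons. This, the exons of the genes other than OPA1, DNM1L and MFF, and the shares and TPM by transcript type were added after seeing the data.

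All 10 genes were named whatever their result, with up to 3 rising and 3 falling genes per pathway list by adjusted p, OPA1 and DNM1L transcripts of at least 5% mean share, and, of other genes past the usage threshold, transcripts of at least 10%. The members and lists were chosen with earlier results of these data known. Listed genes that did not pass were named after their values were seen. For the modifying enzymes, 1 gene that this rule names is not reported here. On simulated data with 200 changed features, 200 genes were recovered by edgeR, 198 by DESeq2 1.42.0, 197 by limma, 173 genes by diffSpliceDGE and 128 exons by limma. The simulated gene and exon changes were larger than those of the 10 genes and their exons with all libraries. Usage was simulated only in genes with the fewest transcripts that its test allows. Recovery of changes as small as those reported here was therefore not measured. Alternatives were DESeq2, library totals, no filter, a length offset, the differentiation number as a block, limma on log2(TPM + 1) and each library left out.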

Additional observations from a re-analysis of the deposited data

Results flagged for a closer look

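Of 58 groups of 4 libraries examined, 7 held a library far from the other 3, and 6 of these were vehicle replicate 2. Chance gives such a library in about 1 in 20 groups. In vehicle replicate 2, DNM1L had 220.6 CPM against 183.7 to 189.8 in the other vehicle libraries and MFF had 79.53 against 71.01 to 72.07. FIS1 had 21.82 CPM there against 27.43 to 28.16, and MIEF1 had 98.58 against 120.0 to 124.2. Inclusion of a noncoding MTFR1 exon of 37 bases was 38.1% there against 1.22% to 1.64%, and inclusion of a noncoding OPA1 exon of 58 bases was 26.44% against 13.3% to 15.1%. The seventh was treated replicate 2, with 92.2% inclusion of the FIS1 exon of 133 bases against 93.0% to 93.1%.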

How the results depend on the processing

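DNM1L, MTFP1 and MTFR1 kept their direction and call in all 14 alternative fits. The count of called members went from 7 to 4 by limma on log2(TPM + 1), and to 4 to 8 with a library left out. The 4 by limma were DNM1L, MTFP1, MTFR1 and OPA1, the last not called by the main fit. Library totals moved the median of all genes from -0.02 to -0.12 and the split of calls from 5484 higher and 5977 lower to 4280 and 7023; FIS1, MFF, MFN2 and MIEF1 then lost their calls and OPA1, MFN1 and MIEF2 gained one. The inner membrane list went from 3 to 5 calls under DESeq2 and under the length offset, and the modifying enzymes from 18 to 7 by limma and 10 to 22 with a library left out. Genes with changed transcript usage numbered 1011, 2423 with 10 reads in all 8 libraries, and 588 to 1489 with a library left out. The usage p of OPA1 was 0.00052 to 0.53 with a library left out. That of DNM1L was 0.0041 with 10 reads in all 8 libraries and 0.0034 to 0.87 with a library left out. OPA1 transcripts past the exact test numbered 0 to 4 and those of DNM1L 1 to 2 with a library left out, and 2 for DNM1L among coding transcripts; with 7 libraries, groups that did not overlap gave 0.0286 or 0.0571. The OPA1 65-base exon difference was -4.52 to 2.94 points with a library left out, lowest without vehicle replicate 2, and that of the FIS1 133-base exon to 0.011 among coding transcripts.

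The same-numbered libraries did not deviate together (correlations -0.0797, 0.0316, 0.0252 and -0.00136). In a fit that takes the number as a replicate block, 6 members were called (MFF was lost, adjusted p = 0.077), and OPA1's usage p was 0.19. In sign-flip tests over same-numbered pairs as the block, whose smallest p is 0.125, 0 transcripts or exons passed.

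The tests rest on 4 libraries per group of one line and on estimated division of reads among transcripts, most uncertain for DNM1L and MFN2, where annotated lengths or transcripts matched in part. The cause of these changes between settings was not tested.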
